A study of Homo sapiens with 2 samples.

Results

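The genes described here are 9 genes of the Notch pathway: the receptors NOTCH1, NOTCH2 and NOTCH3, the ligands JAG1, JAG2 and DLL1, the DNA-binding factor RBPJ, and the transcriptional repressors HES1 and HEY1. They are 9 of the 19775 genes that have at least 1 probe set naming a single gene in the platform annotation, and every such probe set of the 9 genes was taken, 26 in all. The genes were chosen by their part in the pathway and by the measured difference of HES1, which was known to be among the largest upward ones between the arrays, so the values below are a description and no test supports them. Expression was measured in cells labelled MKN28, an established human gastric cancer cell line, listed in registers of misidentified lines as a derivative of MKN74. The first sample, labelled Sox2 overexpression, came from MKN28 cells infected with a lentivirus that carried Sox2 and puromycin resistance, and selected in puromycin at 2 µg/mL for 3 to 5 days. The other sample came from MKN28 cells labelled control (NC), and the labels do not say which virus, if any, these cells received. RNA of each was read on 1 Affymetrix array, called the Sox2 array and the control array below. Neither has a replicate, so the differences carry no replicate error.

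Notch receptors are cell surface proteins that are cut when a ligand of the Jagged or Delta-like family on a neighbouring cell binds them. The released intracellular part enters the nucleus, joins RBPJ on DNA and turns a repressor complex into an activating one. HES and HEY genes are its best known targets, and they encode basic helix-loop-helix repressors. In the stomach and intestine, Notch signalling is known for keeping stem and progenitor cells from differentiating into secretory cells.

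HES1 was the gene with the large difference, and its promoter is the textbook site of RBPJ action, so the bases before its start are shown. Among the 7 of these genes that were searched, RBPJ had the only other promoter with the same letters, and is shown beside it. Both are the 250 bases before a transcript start, on the gene's strand, from RefSeq (GRCh38.p14), at chr3:194135898-194136147 (+) for HES1 and chr4:26319496-26319745 (+) for RBPJ. Capitals mark TGGGAA, the core letters of the RBPJ motif, or its reverse complement.
HES1: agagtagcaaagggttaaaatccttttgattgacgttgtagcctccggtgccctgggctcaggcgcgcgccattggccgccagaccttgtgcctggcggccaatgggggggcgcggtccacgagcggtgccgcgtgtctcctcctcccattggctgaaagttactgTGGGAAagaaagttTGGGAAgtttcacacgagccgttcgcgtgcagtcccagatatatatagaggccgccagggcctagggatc
RBPJ: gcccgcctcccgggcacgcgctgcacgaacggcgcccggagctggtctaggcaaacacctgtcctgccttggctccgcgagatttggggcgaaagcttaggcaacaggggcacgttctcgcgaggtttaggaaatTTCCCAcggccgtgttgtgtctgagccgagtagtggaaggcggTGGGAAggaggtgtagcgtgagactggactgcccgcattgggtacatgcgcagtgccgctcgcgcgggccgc
In the HES1 promoter the motif began 84 and 70 bases before the start, both times on the strand of the gene. In that RBPJ promoter it began 72 bases before the start on the strand of the gene, and 115 bases before it on the other strand. Windows of 300 bases, from 250 before to 50 after the start, were searched for 7 of the 9 genes on both strands. HEY1 and DLL1 were not searched, so whether their promoters hold these letters is not known here. RBPJ had 5 such windows for different starts, and the 2 shown were the only ones of the 11 with TGGGAA. Of all 35116 RefSeq promoter windows, 24.0% held TGGGAA at least once and 3.80% held it 2 or more times. The N-box letters CACNAG, which HES proteins bind, occurred 4 times in the HES1 window, never overlapping TGGGAA. Of all windows, 38.0% held CACNAG at least once and 8.94% held it 2 or more times. The SOX core letters ACAAT were not among the letters of the HES1 window and occurred in 27.4% of all windows. These matches are letters in a window and do not show that a factor was bound.

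The deposited values were linear intensities, 1 per probe set and array, with medians of 34.25 (Sox2 array) and 34.26 (control array). A gene entered the counts when the higher value of its brightest probe set reached 34.25, the median of all values, which kept 14253 genes. SOX2 itself, the gene carried by the virus, read 172 in the Sox2 array and 123 in the control by its brightest probe set (log2 difference 0.49). Its other 3 probe sets differed by -0.02, 0.31 and -0.46, and those at 0.31 and -0.46 lay below the filter. These readings do not bear out the label of the Sox2 array. Whether the probe sets read the Sox2 carried by the virus was not analysed, so they could not check that label. All directions below rest on it. Of 9 epithelial markers, 7 passed the filter and none lay above the 95th percentile of its array, and EPCAM read only 4.96 and 6.32. Of 5 mesenchymal markers, 4 passed and 3 lay above the 95th percentile in both arrays. These readings do not bear out a gastric epithelial identity, and the name of the cell line rests on its label. Of 5 leukocyte and endothelial markers, 3 passed, among them CD3E at 81.96 in the Sox2 array and 71.43 in the control. Passing the filter therefore does not show that a gene was expressed, which holds for the Notch genes too. Summed intensities were 497 in the Sox2 array and 507 in the control for the epithelial list, 6905 and 5322 for the mesenchymal list, and 273 and 267 for the leukocyte and endothelial list. Most of the mesenchymal sums came from VIM, at 5833 in the Sox2 array and 4288 in the control. COL1A2 and COL3A1 were also higher in the Sox2 array (log2 differences 0.40 and 0.16), while COL1A1 and ACTA2 were lower (-0.05 and -0.27). The part of these differences in the values of the Notch genes was not tested. As a technical yardstick, a single probe set had a robust SD of 0.28 in its log2 difference, estimated from 3471 genes with exactly 2 probe sets past the filter. It leaves out any variation between cultures or arrays that both probe sets of a gene share, so it is no replicate error.

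Among the 9 genes, HES1 was past 2-fold upward in the Sox2 array and no gene was past 2-fold downward. The receptors, the ligands and the other repressor, HEY1, differed little by their brightest probe sets. Of the 8 genes past the filter, 1 differed by at least 2-fold in either direction, against 2.69% of all 14253 genes. The 7 others lay between -0.36 and 0.08 on the log2 scale, and 6 of the 8 lay within 1 technical SD of 0, against 65.2% of all genes past the filter. RBPJ did not pass the filter. At the level of probe sets, 15 of the 26 passed, and of these 1 was at least 2-fold higher and 1 at least 2-fold lower. Of 22938 single-gene probe sets past the filter 1.97% were higher and 0.523% lower by that size, 2.49% in all.

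**Figure D1:**
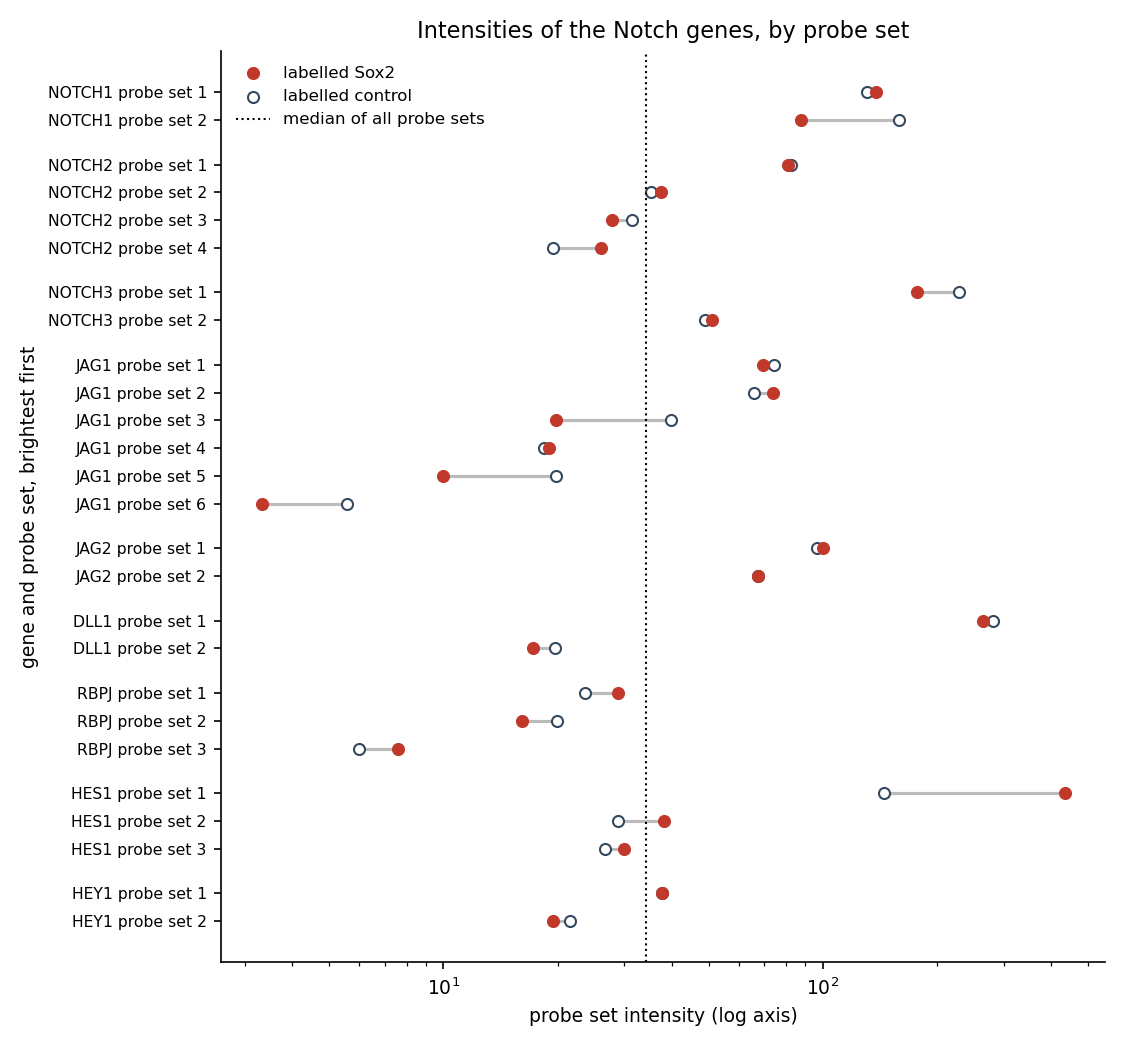
Intensity (log axis) of each of the 26 probe sets in the Sox2 array (filled) and the control array (open), with the brightest probe set of each gene first and the median of all probe sets as a dotted line. The widest gap past the median is that of the brightest HES1 probe set, at 434 and 145, while both JAG2 probe sets and the first HEY1 probe set nearly or fully overlap.

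HES1 is the repressor that keeps progenitor cells of many tissues undifferentiated, and it also represses its own gene. Its brightest probe set, 203395_s_at, read 434 in the Sox2 array and 145 in the control array, or a log2 difference of 1.58 or 2.99-fold. The second, 203394_s_at, read 38.3 and 28.8 (log2 difference 0.41). The third, 203393_at, read 29.95 and 26.72 (0.16), below the filter in both arrays. All 3 were thus higher in the Sox2 array, but only the first by more than 2-fold, and the third by less than 1 technical SD. The second probe set passed the filter only through the Sox2 array, and the gap of 1.17 between the first and the second is given as a description. Where the 3 HES1 probe sets lie along the transcript was not analysed here. RNA was taken from whole cultures, in which more cells with HES1 and more HES1 RNA per cell cannot be told apart.

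By its brightest probe set HES1 held rank 15 from the top among the 14253 genes. Differences were wider at its level than among genes in general. Of 913 genes whose mean log2 intensity lay within 0.5 of that of HES1, 8% were at least 2-fold higher and 2.85% at least 2-fold lower, against 2.05% and 0.645% of all genes past the filter. Longer genes were also higher more often in the Sox2 array, and HES1 is a short gene. In the shortest quintile of genes by genomic length, which holds HES1 and HEY1, 0.457% were at least 2-fold higher and the median log2 difference was -0.058. In the longest quintile, which holds NOTCH2, 4.50% were and the median was 0.050. The part of level or gene length in the difference of HES1 was not tested.

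HEY1, a repressor related to HES1 that is best known from heart and vessel development, showed no such difference. Its brighter probe set read 37.76 in the Sox2 array and 37.78 in the control, just above the filter. The other read 19.5 and 21.5 (log2 difference -0.15). Both probe sets lay near or below the median of all probe sets, and both differed by less than 1 technical SD.

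**Figure D2:**
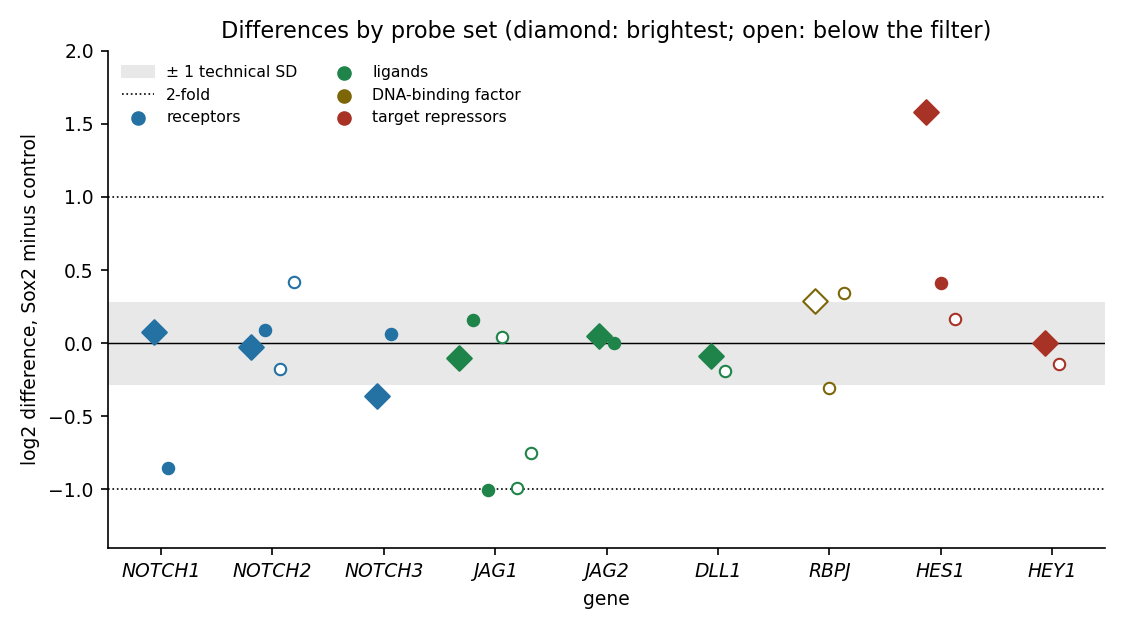
Log2 difference (Sox2 minus control) of each probe set of the 9 genes, with the brightest as a diamond, those below the filter open, the grey band at 1 technical SD (0.28) on either side of 0 and dotted lines at 2-fold. The brightest HES1 probe set lies at 1.58, and the largest differences downward are those of 2 JAG1 probe sets at -1.01 and -0.99, the second below the filter, followed by the NOTCH1 probe set at -0.85.

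NOTCH1, the receptor best known from T cell leukaemia and from progenitors of the gut, was read differently by its 2 probe sets. The first, 218902_at, had 138 in the Sox2 array and 131 in the control array, or a log2 difference of 0.08. The second, 223508_at, had 87.8 and 159, a log2 difference of -0.85 or 1.81-fold lower. Both passed the filter, and their gap of 0.93 was reached by 9.52% of the 5495 genes with at least 2 probe sets past it. The brightness of the pair was similar, so the choice of the first rests on a small margin.

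NOTCH2, a broadly expressed receptor, differed by less than 1 technical SD in both probe sets past the filter. These read 80.95 and 37.54 in the Sox2 array and 82.29 and 35.24 in the control, with log2 differences of -0.02 and 0.09. The 2 dimmer probe sets differed by -0.18 and 0.42. NOTCH2 has partial copies, the NOTCH2NL genes, and 1 probe set that names NOTCH2 together with them was left out by the rule. That probe set read 23.3 in the Sox2 array and 22.5 in the control.

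NOTCH3, a receptor best known from vascular smooth muscle, had the lowest difference of the 8 genes by brightest probe set. It read 177 in the Sox2 array and 228 in the control array, or a log2 difference of -0.36 or 1.29-fold lower. Its other probe set read 51.1 and 49.0 (0.06). The brighter probe set thus lay -1.31 technical SDs from 0, while the dimmer one showed almost no difference.

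JAG1, a Jagged ligand whose loss of function causes Alagille syndrome, had the most probe sets, 6, and these did not give 1 answer. The 2 brightest read 69.5 and 73.8 in the Sox2 array and 74.5 and 66.1 in the control, with log2 differences of -0.10 and 0.16. The next, 231183_s_at, read 19.8 and 39.8, a log2 difference of -1.01 or 2.01-fold lower, and passed the filter only through the control. Of the 3 below the filter, 1 differed by 0.04 and the others by -0.99 and -0.75, at 9.97 and 3.32 in the Sox2 array against 19.8 and 5.58 in the control. The 2 brightest probe sets therefore showed almost equal levels, while 3 of the 4 dimmer ones were lower in the Sox2 array. The range of its probe sets past the filter, 1.17, rests on 231183_s_at.

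JAG2, the other Jagged ligand, was the gene with the closest probe sets. They read 100.03 and 67.62 in the Sox2 array and 96.62 and 67.67 in the control, with log2 differences of 0.05 and -0.001. A range between probe sets at least as wide as this, 0.051, was found in 93.0% of those 5495 genes. DLL1, the Delta-like ligand that marks early secretory progenitors in the mouse intestine, read 264 in the Sox2 array and 281 in the control (log2 difference -0.09). Its second probe set, below the filter, read 17.2 and 19.7 (-0.19). Neither ligand differed by more than 1 technical SD in any probe set.

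RBPJ, the factor through which all Notch receptors act on DNA, was read at low levels only. Its 3 probe sets had 28.9, 16.1 and 7.6 in the Sox2 array and 23.7, 19.98 and 6 in the control. The log2 differences of 0.29, -0.31 and 0.34 differed in sign, and none of these values reached the median of all probe sets. Binding strength varies between probe sets, and these readings therefore do not show that RBPJ was scarce.

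**Figure D3:**
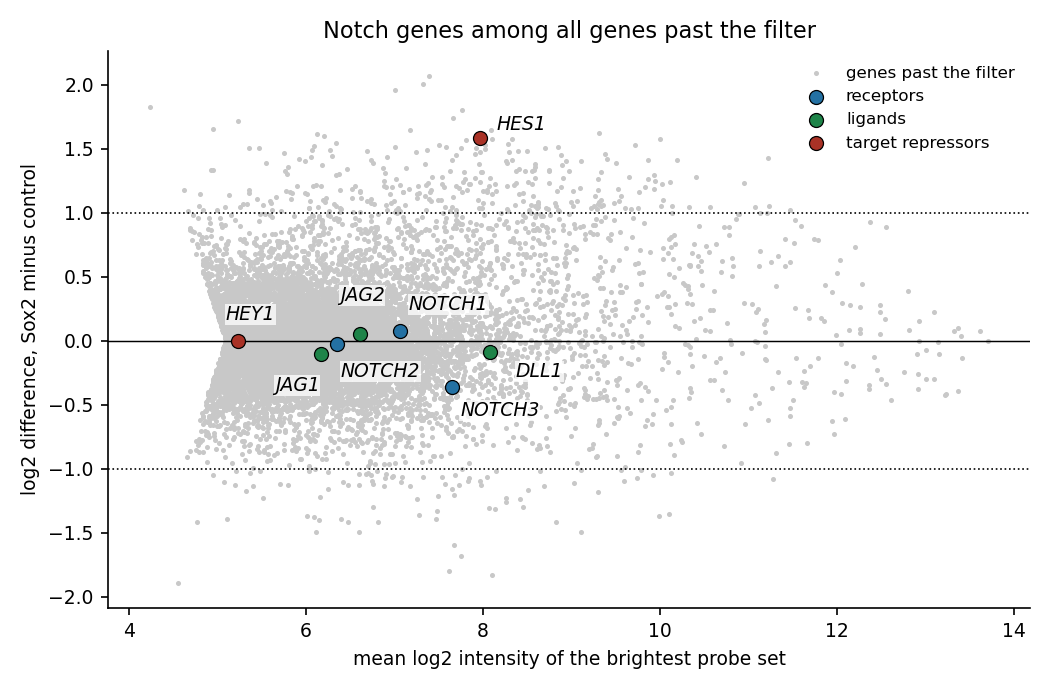
Log2 difference (Sox2 minus control) against the mean log2 intensity of the brightest probe set for the 14253 genes past the filter (grey), with the 8 Notch genes past it in colour by role and dotted lines at 2-fold. HES1 stands at 1.58, and the 7 others lie between -0.36 and 0.08, within the bulk of genes at their level.

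Set side by side, the medians of the roles stood apart through HES1 alone. The median log2 difference of brightest probe sets was -0.02 for the 3 receptors and -0.09 for the 3 ligands, against -0.003 for all genes past the filter. For the 2 target repressors it was 0.79, the midpoint between 1.58 for HES1 and -0.001 for HEY1, which describes neither. Over all probe sets, 4 of 8 lay above 0 for the receptors, 3 of 10 for the ligands, 2 of 3 for RBPJ and 3 of 5 for the repressors. All 3 of the last belonged to HES1. With 1 array per group, no difference between the roles could be tested.

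**Figure D4:**
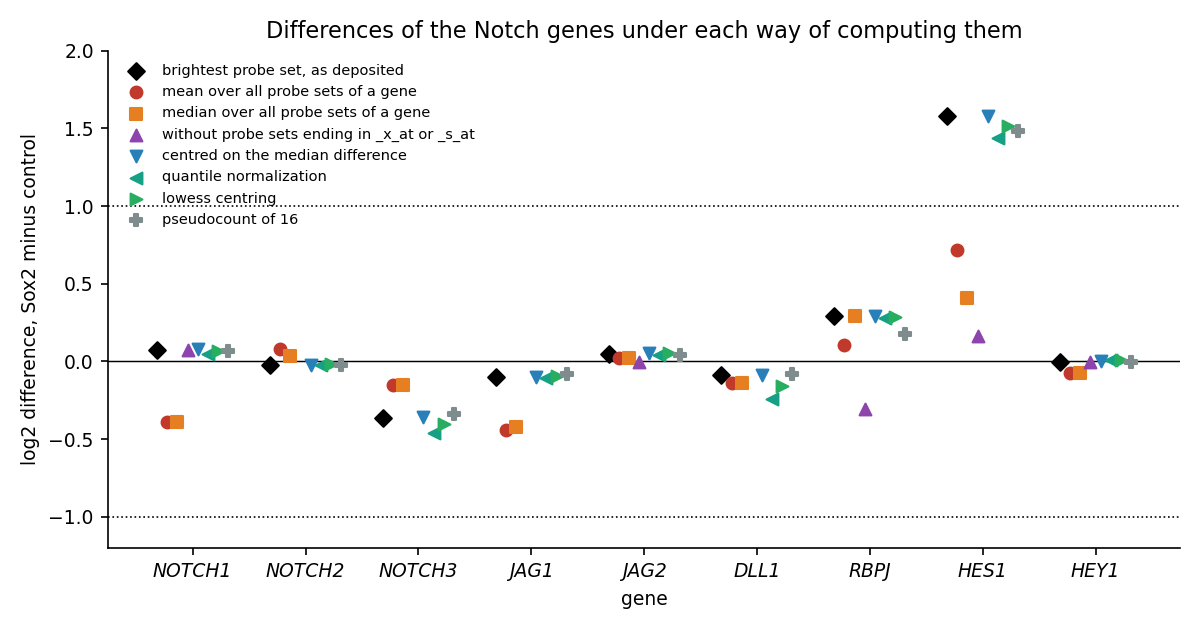
Log2 difference (Sox2 minus control) of each of the 9 genes by its brightest probe set as deposited (black diamond) and under 7 other ways of computing it, with dotted lines at 2-fold. HES1 stays above 2-fold under the 4 changes of scale or pseudocount, from 1.44 to 1.58, and falls under it when its probe sets are averaged, at 0.72, when their median is taken, at 0.41, or when only 203393_at is kept, at 0.16.

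The size for HES1 depended on the probe set. The mean over its 3 probe sets was 0.72 on the log2 scale and the median 0.41, both under 2-fold. Without probe sets whose names end in _x_at or _s_at, which may read more than 1 transcript, only 203393_at was left, with 0.16. For NOTCH1 and JAG1 the mean over probe sets was lower than the brightest probe set, at -0.39 and -0.44.

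Other genes of the pathway were taken from lists by role. Of 77 such genes 70 had a probe set here and 61 passed the filter. None of the 61 reached 2-fold in either direction by its brightest probe set, against 2.69% of all genes past the filter, a share so small that a count of 0 is near it. Of the 61, 32 lay above 0 and 29 below, with a median of 0.07. No test was possible with 1 array per group, so this is a count past a size. At 1.5-fold, 6 were higher and none lower, against 6.46% and 3.77% of all genes past the filter.

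Among the enzymes that mature and cut the receptors, 4 of 7 lay above 0 (median 0.14). ADAM10, the metalloprotease that makes the first ligand-induced cut, read 1482 in the Sox2 array and 844 in the control array, or a log2 difference of 0.81. A second probe set past the filter differed by 0.79, close to the first and short of 2-fold. ADAM10 is in the longest quintile of genes, whose differences are given above. The 4 genes past the filter that encode gamma-secretase subunits, the complex that makes the final cut, lay between -0.26 and 0.14. APH1A read 184 and 220 (-0.26), and PSEN2, a catalytic subunit, read 90.95 and 82.79 (0.14).

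Among the glycosyltransferases that modify the receptors, 3 of 4 lay above 0 (median 0.29). LFNG, the fringe enzyme that shifts receptors towards Delta-like ligands and is itself a Notch target, read 213 in the Sox2 array and 111 in the control (log2 difference 0.94). It was the largest difference of the 61, but the difference of its second probe set past the filter was 0.06. For the ubiquitin ligases and endocytic regulators, 6 of 11 lay above 0 (median 0.11). FBXW7, the ligase subunit that marks the Notch intracellular part for degradation, read 200 and 148 (0.43), and 1.14 by a second probe set past the filter.

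In the nucleus, 4 of 6 coactivators (median 0.29) and 7 of 10 corepressors (median 0.12) lay above 0. CREBBP, an acetyltransferase, read 130 in the Sox2 array and 68.8 in the control (0.91), while its 3 other probe sets past the filter lay between -0.12 and 0.34. CTBP2, a corepressor, read 1070 and 701 (0.61), and its 4 other probe sets lay between 0.15 and 0.53. MAML1, the scaffold of the activating complex, read 125 and 98.8 (0.33). Of the 6 coactivators, 3 were in the longest quintile of genes, CREBBP among them, as were 4 of the 10 corepressors. The part of gene length in these values was not tested.

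None of the other HES and HEY family genes reached 2-fold. Of 9 past the filter, 3 lay above 0 and 6 below, with a median of -0.08. HES5, a Notch target in neural progenitors, read 59.8 in the Sox2 array and 63.4 in the control (-0.08), and HEY2, a close relative of HEY1, read 41.3 and 44.7 (-0.11). The largest difference in this list was that of BHLHE41, a circadian repressor of the same superfamily, at 151 and 85.6 (0.81), with its other probe sets between -0.13 and 0.31. Of the 9 genes, 7 are in the shortest quintile of genes, as HES1 is.

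Other genes known as direct Notch targets were split evenly, with 5 of 10 above 0 and a median of 0.04. NRARP, a feedback inhibitor that Notch induces in many tissues, read 106 in the Sox2 array and 132 in the control (-0.31). SOX9, a progenitor factor, read 42.6 and 43.2 (-0.02), and CCND1, a G1 cyclin, read 60.3 and 53.9 (0.16). GATA3 read 96.8 and 69.6 (0.48), the largest upward difference of this list after that of LFNG. The list overlaps others here, since it also holds LFNG, NOTCH4 and DTX1.

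Of the genes that HES1 is known to repress, 1 of 5 past the filter and outside the 9 genes lay above 0, with a median of -0.10. ATOH1, the factor that commits intestinal cells to secretory fates, read 24.6 in the Sox2 array and 35.0 in the control array, or a log2 difference of -0.51. It passed the filter only through the control array, by less than 1 unit of intensity. NEUROG3, which specifies endocrine cells of the gut, read 40.8 and 46.0 (-0.17). CDKN1B, a cell cycle inhibitor, read 79.4 and 85.3 (-0.10). DLL3, a Notch ligand, read 61.9 and 65.1 (-0.07), but gave 0.12 and 0.14 by its dimmer probe sets past the filter. CDKN1C, another cell cycle inhibitor, was the 1 above 0, at 66.9 and 62.1 (0.11), with its other probe sets between -0.29 and 0.06. The last 4 genes named, by brightest probe set, lay within 1 technical SD of 0. Of the remaining receptors and ligands, NOTCH4 read 52.4 and 67.6 (-0.37) and DLL4, a ligand best known from blood vessels, read 140 and 178 (-0.35).

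**Figure D5:**
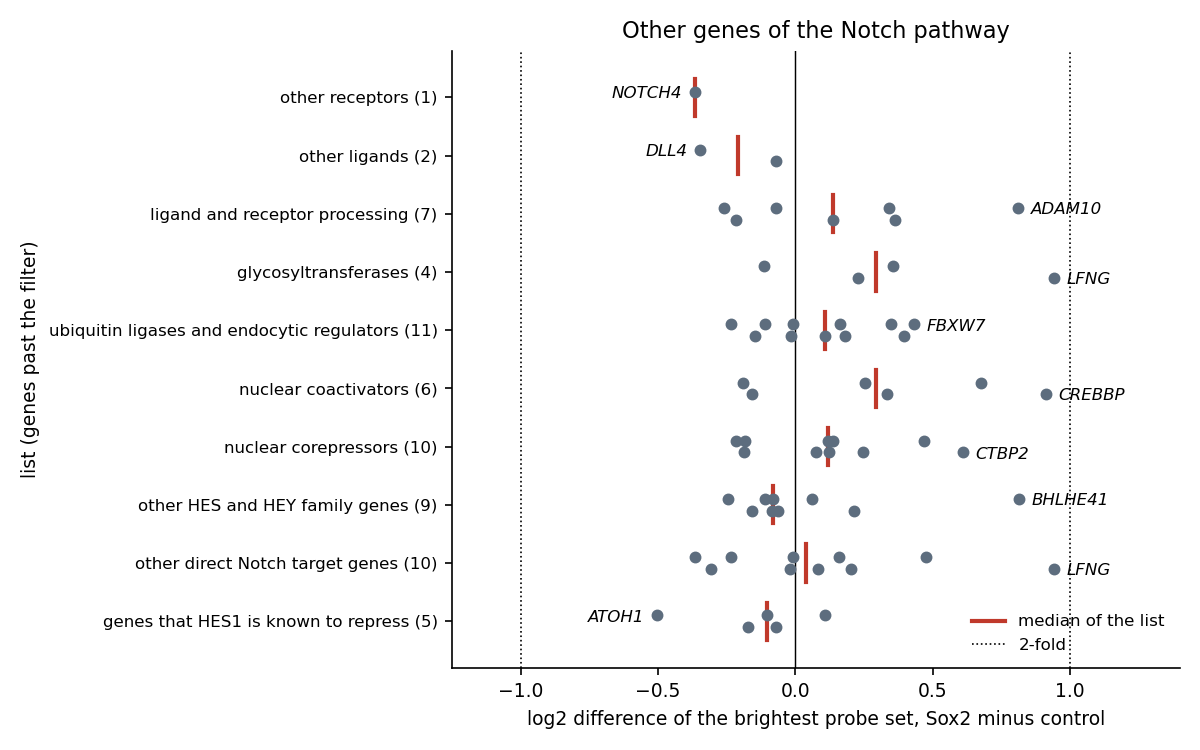
Log2 difference (Sox2 minus control) of the brightest probe set of each gene past the filter, for 10 lists of other Notch pathway genes, with the median of each list as a red bar and the gene with the largest difference named. All points lie between the dotted 2-fold lines, from -0.51 for ATOH1 to 0.94 for LFNG.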

How the data were processed

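The authors deposited 1 intensity per probe set and array, on a linear scale as the values show. Of tools, the submitters' processing notes list RMA alone. Its version and settings, and the last step that made the values linear, are not stated there. The deposited columns did not have the same distribution, with 95th percentiles of 162 in the Sox2 array and 156 in the control array. They are therefore not taken here as quantile-normalized together. Both columns were used as the authors deposited them and taken to log2 without a pseudocount or further scaling. Of 54675 probe sets, 41091 named exactly 1 gene in the platform annotation, 1801 several and 11721 none, beside 62 control probe sets. Symbols were updated by gene identifier to RefSeq names. The brightest probe set by mean log2 value stood for each gene. Genes were counted at a difference of at least 2-fold. With 1 array per group no p-value is given, and the number of arrays limits the precision.

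The 9 genes, the lists and the alternatives were chosen with earlier results of these data known. The genes named by rule are the 9 genes, SOX2 and, of each list, those past 2-fold or else the gene with the largest difference; other genes of the lists were named after their values were seen. With 2 arrays no genes of like pattern were sought. Gene length quintiles were added after seeing the data. The counting was tested on simulated data. Python 3.11.15, numpy 2.4.6, pandas 2.3.3, statsmodels 0.14.6 (lowess, span 0.3) and matplotlib 3.10.9 were used.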

Additional observations from a re-analysis of the deposited data

How the results depend on the processing

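The choice of probe set moved the results most. With the mean over all probe sets of a gene, the log2 difference was -0.39 for NOTCH1, -0.44 for JAG1 and 0.72 for HES1, the median of the target repressors was 0.32, none of the 9 genes reached 2-fold, and 69 of all genes were higher and 47 lower, against 292 and 92 by brightest probe set. With the median over probe sets, the values were -0.39 for NOTCH1, -0.43 for JAG1, 0.41 for HES1 and 0.17 for the repressors, with 0 of the 9 genes at 2-fold and 80 higher and 46 lower of all genes. When probe sets ending in _x_at or _s_at were left out, HES1 had 0.16, RBPJ had -0.31 and the repressors, then HEY1 alone, had -0.00076, with 0 of the 9 genes at 2-fold and 172 higher and 61 lower of all genes. NOTCH2, NOTCH3, JAG1 and DLL1 then had no value. With a pseudocount of 16, 48 genes were lower, and with no filter, 177. With the filter at the 75th percentile the repressors were HES1 alone (1.58). At 1.5-fold, 6 pathway genes, and 921 higher and 537 lower of all genes, were counted. The other 120 values under alternatives moved by less than 0.28 on the log2 scale or less than 1.5 times as counts, among them those of HES1 under median centring, quantile normalization and lowess. The poly-A spike-ins, 24 probe sets, were all lower in the Sox2 array (median log2 difference -0.75). Scaling on them was not run. It would add 0.75 to every difference and leave the gaps between genes as they are. The signs of small downward differences and the counts past 2-fold would change. The count of other pathway genes past 2-fold is among these, since LFNG stood at 0.94. No paired analysis was possible because each group has 1 array. Probe-level signal over background was not used here, so no detection call was made.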
